A study of Mus musculus with 12 samples.

Results

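The footprint-to-RNA ratio of untreated wild-type mouse embryonic stem cells was examined gene by gene. The ratio sets the share of ribosome-protected fragments that a gene takes in a ribosome profiling library against the share of reads it takes in a poly(A) RNA library from the same culture condition. Its members are the 19987 gene symbols that occur both in the deposited footprint table and in the deposited RNA table, of 51981 symbols in either table. The 63 replication-dependent histone genes shared by the tables were left out, because their mRNAs end without a poly(A) tail. Of the series' 12 libraries, 4 enter the ratio: footprint libraries A and B and RNA libraries A and B, each from a biological replicate. The remaining libraries come from cells given 500 nM dTAG-13 for 1 h or from a Gcn2 knockout.

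All 4 libraries come from ES-E14TG2a, an established mouse embryonic stem cell line, in which eRF1 carries a dTAG degron. eRF1, the product of Etf1, recognises stop codons, and dTAG-13 is a compound that directs a tagged protein to degradation. The cells were genotyped as wild type at Gcn2 and received no compound, but the tag on eRF1 was present throughout, so untagged cells are not part of the comparison. They grew on gelatin in LIF medium that also blocked the kinases GSK3 and MEK, conditions that hold stem cells in the naive state. Whether the line is a single clone is not stated in the labels. Lysates were digested with RNase I, 80S ribosomes were taken from a sucrose gradient, and the protected fragments were cut from a gel.

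A ribosome shields a short stretch of mRNA from nuclease, so the fragments recovered from monosomes report where ribosomes sat. Dividing a gene's footprints by its mRNA gives a relative measure of how many ribosomes each mRNA carries, usually called translational efficiency. Known controls of that number include the terminal oligopyrimidine (TOP) tract of ribosomal protein and elongation factor mRNAs, which ties their initiation to mTOR signalling through LARP1, and upstream open reading frames, which capture scanning ribosomes before the main start codon, as in Atf4. Others are the iron-responsive element in the leader of ferritin mRNAs, polyamine-dependent frameshifting in antizyme mRNA and UGA recoding in selenoprotein mRNAs. Footprints lie mostly on coding sequence whereas RNA reads cover whole transcripts, so the length of untranslated sequence also enters a ratio of this kind; transcript lengths were not used here.

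The footprint libraries held 19691716 and 17052771 counts and the RNA libraries 24256097 and 22005702. Shares below are in CPM, counts per 1000000 of these totals. Over the 11079 genes with at least 10 counts in every library, the ratios of replicates A and B had a Spearman rho of 0.939, and their difference had an SD of 0.423 on the log2 scale. Footprint replicates differed more (SD of the log2 difference 0.371) than RNA replicates (0.213). The summed share of 8 stem cell markers was 9307 and 9704 CPM in the footprint libraries, against 5178 and 5137 in the RNA libraries. That of 8 fibroblast markers, with Prrx1 at 0 throughout, was 10.6 and 19.8 against 10.5 and 11.0, that of 6 primitive endoderm markers 9.60 and 11.1 against 6.97 and 5.27, that of 6 trophoblast markers 13.3 and 18.003 against 53.02 and 48.3, and that of 5 two-cell-like markers was at most 0.176 in any library. No summed marker level of another cell type came near that of the stem cell markers, but Cdx2 and Eomes, regulators of trophoblast and early mesoderm, were clearly present as RNA and had low footprint shares. In bulk libraries, a few cells with much of an mRNA and many cells with little of it cannot be told apart.

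Most mRNAs carried footprints in rough proportion to their abundance. Footprint and RNA shares had a Spearman rho across genes of 0.812 in replicate A and 0.808 in replicate B. It was taken over the 11079 genes with at least 10 counts in every library, where genes are not independent replicates. Of 12485 genes with enough counts to test, 7062 (56.6%) lay within 2-fold of the median ratio, which was -0.41 on the log2 scale. The edgeR quasi-likelihood test over the 2 footprint and 2 RNA libraries called 9261 genes at a Benjamini-Hochberg adjusted p under 0.05, which is 74.2% of those tested. The footprint share was higher than the RNA share for 3077 of them (24.6%) and lower for 6184 (49.5%); with a ratio of over 2-fold as well, the counts were 1818 (14.6%) and 3874 (31%). Shares of the 2 assays did not overlap for 3762 genes with a higher (30.1%) and 7080 with a lower footprint share (56.7%). Because shares sum to a whole, the split depends on where equal shares are set. With TMM scaling over the 4 libraries the median moved up to -0.04, and 4358 genes (34.9%) were called higher and 4606 (36.9%) lower. Gene groups are therefore described against the median of all genes. Counts of called members in a group are to be read beside the 24.6% called higher and 49.5% called lower among all genes. The values are shown in the plot of footprint shares against RNA shares.

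**Figure D1:**
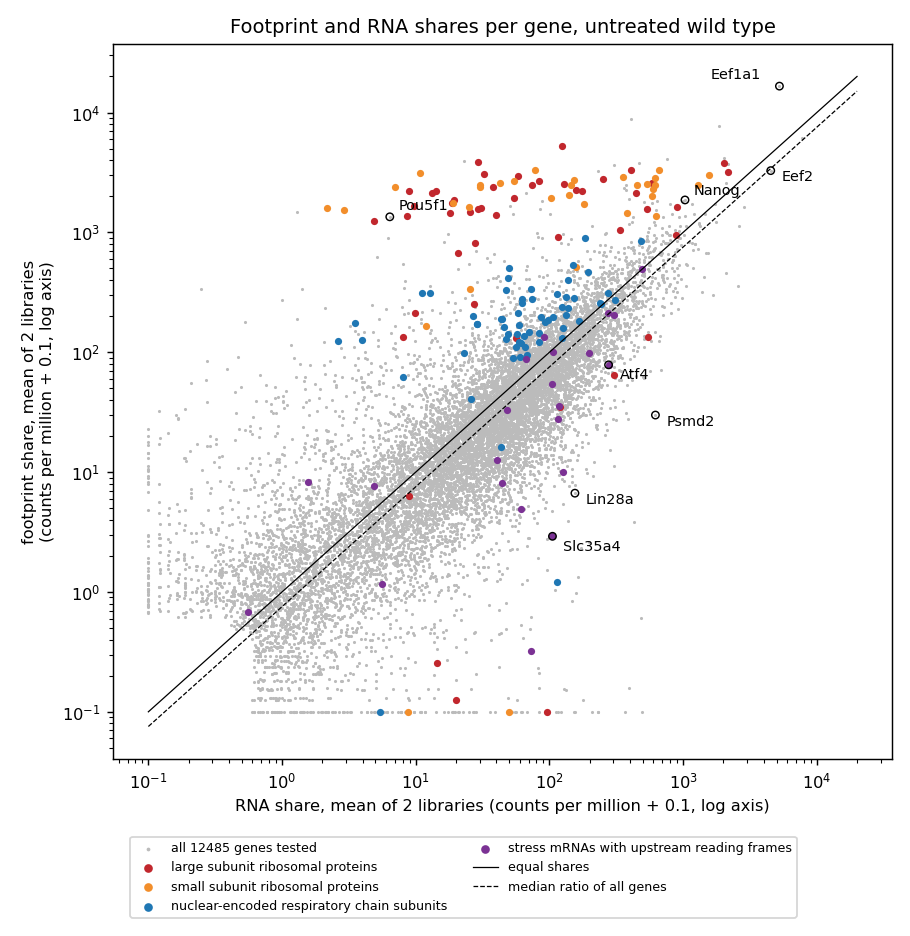
Each point is 1 of 12485 genes tested, with its mean footprint share (vertical) against its mean RNA share (horizontal), both in CPM plus 0.1 on log axes. Most genes lie along the dashed line of the median ratio, ribosomal proteins of the large (red) and small (orange) subunit form a band at high footprint shares that spans a wide range of RNA shares, and points on the lowest line have no footprint in either library.

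A ratio over 16-fold in either direction was found for 351 genes with a higher (2.81%) and 364 with a lower footprint share (2.92%), and for 179 (2.74%) and 175 (2.68%) of the 6521 genes that overlap no other gene and have no pseudogene row named after them. Part of the high ratios lay in certain stretches of the genome. For Pou5f1, the gene of the pluripotency factor OCT4 on chromosome 17, the footprint libraries held 27147 and 22513 counts and the RNA libraries 139 and 151, a log2 ratio of 7.75 (SE 0.16). OCT4 mRNA is abundant in stem cells, and the RNA share of 5.73 and 6.86 CPM is far under that of Nanog, at 1055 and 1010.5. Neighbouring genes showed the same: the 78 genes tested within 1.5 Mb of Pou5f1 had a median log2 ratio of 4.55, with 73 above 0 and 67 over 4-fold, whereas the 73 genes between 1.5 and 6 Mb away had a median of -0.09. Such stretches occurred elsewhere. Of 928 windows of 1 Mb with at least 5 tested genes, 26 had a median log2 ratio over 1.5 and 30 one under -1.5. The windows over 1.5 held 338 genes, of which 142 were among the 351 over 16-fold higher.

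**Figure D2:**
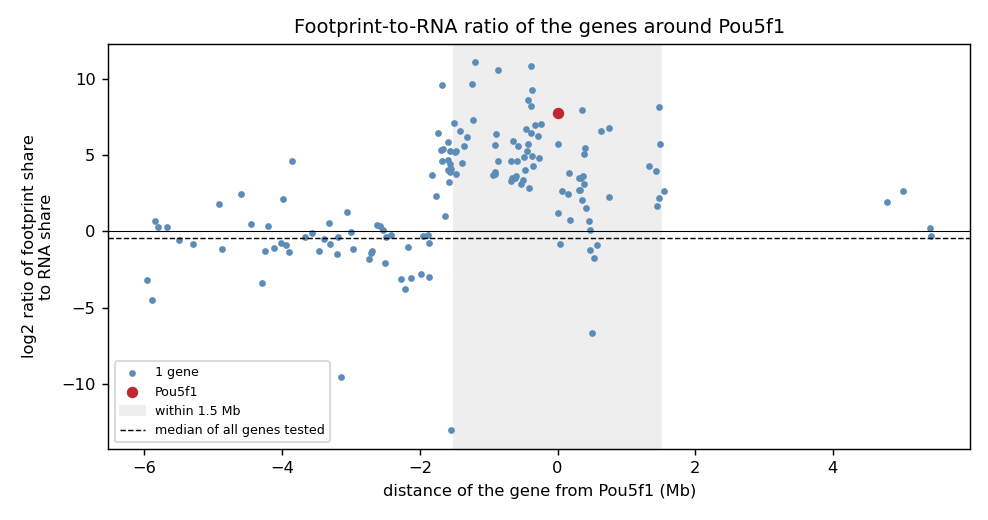
Each point is a gene on chromosome 17, at its distance from Pou5f1 in Mb (horizontal), with its log2 ratio of footprint share to RNA share (vertical). The genes in the grey band, within 1.5 Mb, have a median of 4.55 and those farther out one of -0.09; the dashed line is the median of all genes, -0.41.

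Processed copies of genes moved with the ratio too. Rows of pseudogenes took 9.91% and 9.59% of RNA counts but 0.194% and 0.179% of footprint counts. Rpl3, chosen here after its values were seen, had 65096 and 47933 footprint counts against 826 and 676 RNA counts, while the pseudogene rows named after it held 24692 and 21693 RNA counts and 0 footprint counts. The 317 tested genes with a pseudogene row named after them had a median log2 ratio of 0.94, against -0.42 for the 12168 without one. A ratio over 16-fold higher was found for 15.8% of them and one over 16-fold lower for 4.73%. A high ratio of such a gene thus cannot be told apart from RNA reads counted elsewhere, and for these genes the measure is a footprint-to-RNA ratio as counted rather than translational efficiency. Medians of the groups below are given also over their genes without overlap or copies, those that overlap no other gene and have no pseudogene row named after them. The median of all 6521 such genes was -0.37. This match goes by name only. It misses pseudogenes under other names, such as Gm13456 and Eif4a-ps4, and copies that are genes, such as Amd2 and Eno1b. The same limit holds where a single gene is said to have no pseudogene row.

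Ribosomal protein mRNAs, the classical TOP mRNAs, had the highest ratios as counted. Of 48 large-subunit genes 40 were called higher and 7 lower, with a median log2 ratio of 4.37, and of 33 small-subunit genes 31 were called higher and 2 lower, with a median of 3.75. The footprint levels themselves were more even than the RNA levels. Rps13 had 1725 and 1372 CPM in the footprint libraries, against 2.72 and 2.91 in the RNA libraries, and Rpl38 had 1268 and 1241 against 4.66 and 4.86. Rps28 (1739 and 1449.5 against 2.84 and 1.27) and Rpl23a (2421 and 2052 against 8.58 and 9.04) complete the highest pair of each subunit. For all 4 of these the footprint shares lie far above the RNA shares, with log2 ratios of 9.10, 8.04, 9.57 and 7.99. With pseudogene rows added, the ratios of Rps13, Rpl38 and Rpl23a came to 3.80, 3.32 and 3.33. Rps28 has no such row, but it lies 1.68 Mb from Pou5f1, in a 1 Mb window with a median of 3.22.

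At the other end, Rps18 and Rps27, of the small subunit, had 0 footprint counts in both libraries, with 52.98 and 47.35 CPM of RNA for Rps18 and 8.74 and 8.59 for Rps27. Set against a floor of 3 counts over both footprint libraries, their footprint shares were at least 616-fold and 106-fold lower. The pseudogene rows named after Rps18 held 555 and 301 footprint counts against 6246 and 5133 RNA counts, and with them its log2 ratio was -3.68. Rpl10 had 1 and 0 footprint counts and 19.3 and 20.7 CPM of RNA. These proteins are needed in every ribosome, and the counts show only that footprints were not assigned to these symbols.

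Adding the counts of pseudogene rows to their parent genes, an alternative chosen after seeing the data, brought the medians to 2.43 for the large and 2.26 for the small subunit. Among ribosomal protein genes, 64 had such rows, and 28 of these had more RNA counts in the rows than in the gene in both libraries. The 17 without such rows had a median of 2.02. The 4 large-subunit and 5 small-subunit genes with neither overlap nor pseudogene row had medians of 1.88 and 1.69. In every version the medians stayed above that of all genes.

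**Figure D3:**
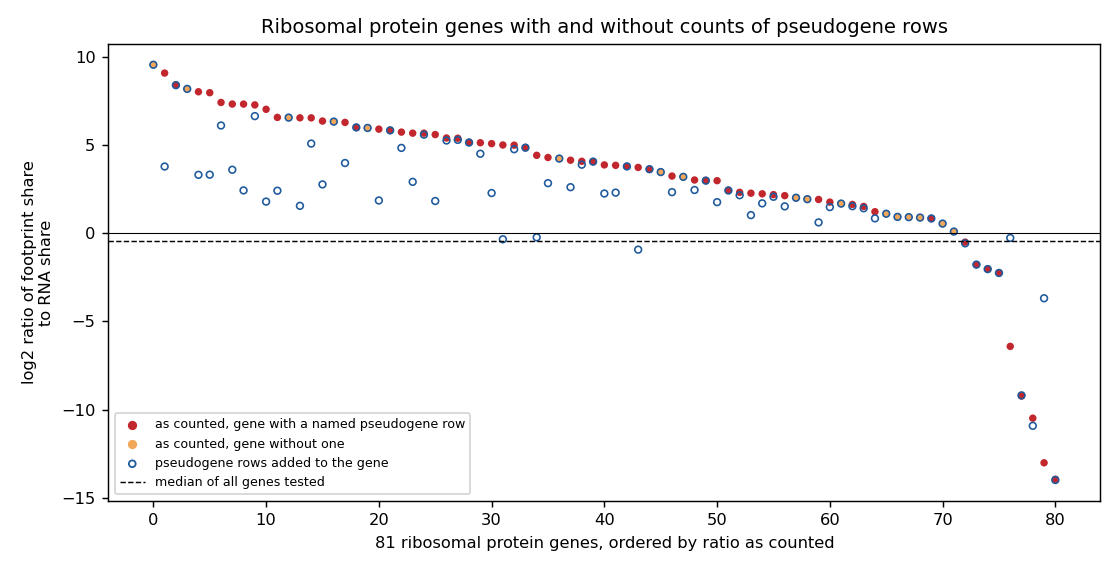
The 81 ribosomal protein genes tested, ordered from highest to lowest log2 ratio of footprint share to RNA share as counted (filled points), with the same ratio after adding the counts of pseudogene rows named after each gene (open circles). Open circles lie well under many filled points of genes with such rows, and with the rows added the medians are 2.43 for the large and 2.26 for the small subunit, against 4.37 and 3.75 as counted.

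Other mRNAs known to begin with a TOP tract were higher as a group but ran in both directions. Of 26 tested, 19 were called higher and 7 lower, with a median of 0.92 (0.84 over the 14 without overlap or copies). Eef1a1, the elongation factor that brings aminoacyl-tRNA to the ribosome, took 17579 and 15654 CPM of the footprints, against 5344 and 5167 of the RNA (log2 ratio 1.66, SE 0.14). Eef2, which moves the ribosome along, took 3243 and 3312 against 4520.1 and 4528, close to the median gene at -0.47. Naca, a chaperone subunit at the ribosome exit, had 1467 and 1389 against 107 and 95.8. Tpt1 had 1935 and 1721 against 88.7 and 87.0; its 7 pseudogene rows held 17540 and 15493 RNA counts, far more than the 2151 and 1915 of the gene, and adding them brought its log2 ratio to 1.19.

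The poly(A)-binding protein mRNAs were the low end of that list. Pabpc1, whose own leader binds its product, had 315 and 400.0 CPM of footprints, against 2585 and 2603 of RNA, a log2 ratio of -2.86 (SE 0.15; edgeR quasi-likelihood adjusted p = 8.0e-07). Pabpc4 had 19.8 and 20.8 against 159 and 162, a log2 ratio of -2.98. Both footprint values of each gene lie under both RNA values by a wide margin.

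Annotated transcript starts did not sort the genes by ratio. The starts below run from 10 bases before the annotated start to 15 bases from it, on the transcript strand, from RefSeq on GRCm38.p6, with a C followed by at least 4 pyrimidines, beginning within 5 bases of the start, in capitals. They are shown because the same kind of tract stands at the start of a ribosomal protein gene with a high ratio, of Eef1a1, and of Lin28a and Psmd2, which have low ratios; Atf4 has none.
Rpl38 (chr11:114668570-114668594, plus strand): aagcctcgttCTTTCCCCgttctct
Eef1a1 (chr9:78481710-78481734, minus strand): ctccgCCCTCTTCCCgagggtgggg
Lin28a (chr4:134018802-134018826, minus strand): ccgaaccaCCCCTTTgcctccggac
Psmd2 (chr16:20651642-20651666, plus strand): caacgcgcgtggCCTTCTgggaaaa
Atf4 (chr15:80255174-80255198, plus strand): tcagagctttggctaggtgtcccac
Their log2 ratios were 8.04, 1.66, -4.56, -4.38 and -1.82 in that order. Such a tract was found at 18.3% of the 32851 annotated starts, at a start of 24.0% of the 10017 tested genes with an entry, of 30 of 60 ribosomal protein genes and of 7 of 18 other TOP genes. Outside the ribosomal proteins, the 2379 genes with a tract had a median log2 ratio of -0.46. The median over all genes without one was -0.41. A match describes the letters at an annotated start only; where transcription begins in these cells was not measured.

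Among factors of translation, 12 of 35 initiation factor genes (34.3%) were called higher and 17 (48.6%) lower, beside 24.6% and 49.5% of all genes. Their median of -0.35, the same over the 19 without overlap or copies, was close to that of all genes. Eif4a1, the helicase of the cap-binding complex, had 3500.0 and 3847 CPM of footprints, against 304 and 304 of RNA, and overlaps 3 other annotated genes. Its RNA counts were 7373 and 6699, whereas the pseudogene row Eif4a-ps4, which the footprint table does not carry, held 42169 and 37438. That row was not assigned to any gene by name, and its part in the ratio of Eif4a1 was not tested. Eif2s3x, the gamma subunit of eIF2, had 411 and 459 against 41.6 and 40.9. Eif4ebp2, an inhibitor of cap binding, was low at 29.1 and 26.0 against 376 and 398 (log2 ratio -3.81), with no overlap and no pseudogene row. Eif3j1 was at 0 in both footprint libraries, at least 69.4-fold lower.

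Of 21 termination, recycling and rescue factor genes 17 were called lower, a share of 81% beside the 49.5% of all genes, and none was called higher. Their median was -0.70 (-0.74 over the 9 without overlap or copies), and 6 of the 21 lay above the median of all genes. Etf1, the mRNA of the tagged eRF1, had 201 and 194 CPM of footprints, against 406 and 403 of RNA (log2 ratio -1.03, SE 0.10). Gspt1, which encodes its partner eRF3a, had 126 and 167 against 375 and 375. Smg5, of nonsense-mediated decay, had 120.0 and 97.0 against 356 and 357, and Gigyf2, which represses initiation on mRNAs with collided ribosomes, had 34.6 and 53.1 against 143 and 143. The lowest ratio of the list was that of Smg5, at -1.72. The kinase gene Eif2ak4, which encodes Gcn2, had 28.2 and 30.9 CPM of footprints, against 49.7 and 49.0 of RNA (-0.74).

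Of 21 cytosolic aminoacyl-tRNA synthetase genes, which charge tRNAs with amino acids, 11 were called higher and 3 lower, with a median of 0.27 (also 0.27 over the 10 without overlap or copies). Yars had 249 and 206 CPM of footprints, against 52.8 and 54.8 of RNA. Vars, at 3.38, lies in a 1 Mb window whose median was 4.15. Tars was an exception at 62.0 and 60.8 against 320.0 and 297, a log2 ratio of -2.33 with no overlapping gene and no pseudogene row, and Kars had 392 and 446 against 613 and 620.5.

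Of 22 mRNAs of stress genes known for upstream open reading frames, 14 were called lower, a share of 63.6% beside the 49.5% of all genes, and 4 were called higher. Their median was -0.98, and 8 of the 22 lay above the median of all genes. Over the 13 without overlap or copies the median was -0.54, nearer to the -0.37 of all such genes. Atf4, the transcription factor of the integrated stress response, had 82.6 and 74.3 CPM of footprints, against 291 and 263 of RNA (log2 ratio -1.82, SE 0.11; edgeR quasi-likelihood adjusted p = 1.5e-06). Ppp1r15a, the stress-induced subunit of the eIF2α phosphatase, had 7.47 and 8.56 against 46.1 and 41.8, and its constitutive counterpart Ppp1r15b had 87.7 and 111 against 194 and 199.8. In all 3 genes both footprint shares were under both RNA shares.

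Slc35a4, whose leader encodes a small mitochondrial protein, stood lowest among stress mRNAs with over 10 counts in each library. It had 3.05 and 2.58 CPM of footprints, against 104 and 106 of RNA, a log2 ratio of -5.22; footprints on the upstream frame are in its count only if whole transcripts were counted, which the sources used here do not state. Ddit3, which encodes the stress factor CHOP, had 1.63 and 0.528 against 5.24 and 5.73. Atf5 had 18.3 and 6.63 against 41.5 and 39.1; its footprint replicates stood far apart, and its call was lost with DESeq2 and with no filter on low counts. Cebpb went the other way at 10.7 and 5.69 against 1.36 and 1.59, as did Bace1 at 7.72 and 7.27 against 4.25 and 5.23. Amd1, for S-adenosylmethionine decarboxylase, had 4 footprint counts in each library and 76.4 and 69.4 CPM of RNA. Its copy Amd2 had 0 footprint counts and 19.9 and 18.9 CPM of RNA, so reads shared by the pair cannot be assigned.

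Of 12 polyamine and frameshift genes 4 (33.3%) were called higher and 6 (50%) lower, beside 24.6% and 49.5% of all genes. Their median was -0.55. Only 4 had neither overlap nor a pseudogene row named after them, with a median of -4.44. Among them were the spermidine synthase gene Srm (log2 ratio 1.22) and the acetyltransferase gene Sat1 (-0.54, not called), both named here after their values were seen. The others were Amd1 and its copy Amd2, with at most 4 footprint counts in a library. Odc1, for ornithine decarboxylase, the first enzyme of polyamine synthesis, had 195 and 217 CPM of footprints, against 308 and 303 of RNA. Azin1, for the antizyme inhibitor, was lower at 26.6 and 29.1 against 113 and 119, a log2 ratio of -2.06. Oaz1, the antizyme made by frameshifting, had 199.6 and 189.6 against 71.6 and 64.3 (log2 ratio 1.52), but with the RNA counts of its pseudogene row added the value was -1.09. Sms, for spermine synthase, changed sign in the same way, at 1.87 as counted and -0.16 with its row added. Paox, for polyamine oxidase, had 43.5 and 48.9 against 8.78 and 8.77.

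The ferritin mRNAs lay far apart as counted and nearer to each other, in the reverse order, once pseudogene rows were counted in. Fth1, for the ferritin heavy chain, had 80.4 and 107 CPM of footprints, against 443 and 418 of RNA (log2 ratio -2.20, SE 0.14), and has no such row. Ftl1, for the light chain, had 1 footprint count in each library and 13.3 and 11.3 CPM of RNA. Its 2 pseudogene rows held 399 and 327 footprint counts against 486 and 412 RNA counts, and adding them brought its log2 ratio to -0.68, near the median of all genes, where it was -7.67 as counted. Tfrc, the transferrin receptor, whose iron-responsive elements lie in the tail, had 455 and 535 against 329 and 325. Ncoa4, the ferritin-degradation receptor, was the highest of the list at 127 and 156 against 3.79 and 3.36, a log2 ratio of 5.30. Its pseudogene row held 1828 and 1808 RNA counts, and with it the value was 0.78. The 14 tested genes of iron control had a median of -0.35 (-0.09 over the 8 without overlap or copies). Of these 14 genes, 4 (28.6%) were called higher and 6 (42.9%) lower, beside 24.6% and 49.5% of all genes.

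Of 20 selenoprotein genes 10 were called higher and 6 lower, with a median of 0.50 (also 0.50 over the 12 without overlap or copies). Gpx4, the phospholipid peroxidase, had 632 and 511 CPM of footprints, against 38.6 and 33.3 of RNA, a log2 ratio of 3.99. Its 2 pseudogene rows held 5373 and 4414 RNA counts, and with them the value was 1.21. Sephs2, which makes the selenium donor, had 80.6 and 71.9 against 195 and 186, a log2 ratio of -1.32 with neither overlap nor pseudogene row. Peg10, a retrotransposon-derived gene read through a frameshift, had 288 and 346 against 1305 and 1478, a log2 ratio of -2.13.

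Naive pluripotency genes had a median of 0.32 (0.35 over the 16 without overlap or copies), with 14 of 28 called higher and 10 lower. Dppa5a, a stem cell RNA-binding protein, had 3729 and 3807 CPM of footprints, against 505 and 431 of RNA (log2 ratio 3.01, SE 0.14), with no overlapping gene and no pseudogene row. Nanog had 1631 and 2099.9 against 1055 and 1010.5. Zfp42, also known as Rex1, had 936 and 1054 against 761 and 745, and Esrrb had 687 and 589.7 against 842 and 856; the calls of both were lost under other settings. Sox2 had 268 and 199.8 against 474 and 453, and Klf4 143 and 156 against 369 and 419. The core factors thus ran from Nanog, at 0.85, down to Klf4, at -1.40, leaving Pou5f1 aside.

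Lin28a, an RNA-binding protein that blocks let-7 maturation, was the lowest of the list, with 126 and 115 footprint counts against 3819 and 3360 RNA counts. Its log2 ratio was -4.56 (SE 0.12; edgeR quasi-likelihood adjusted p = 3.2e-08), and it has neither an overlapping gene nor a pseudogene row. Sall1 had 93.2 and 96.3 CPM of footprints, against 276 and 317 of RNA. Of 18 primed and early differentiation genes 3 were called higher and 11 lower, with a median of -0.76 (-0.69 over the 12 without overlap or copies). Lef1, a Wnt-responsive factor, had 0.152 and 0.235 against 6.56 and 6.27. T, the mesoderm factor brachyury, had 3 and 1 footprint counts and 4.99 and 4.91 CPM of RNA. Nodal, a signalling ligand, was called higher at 125 and 143 against 74.2 and 72.1, and Gsc, a homeobox factor, at 18.1 and 21.5 against 7.50 and 7.68.

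**Figure D4:**
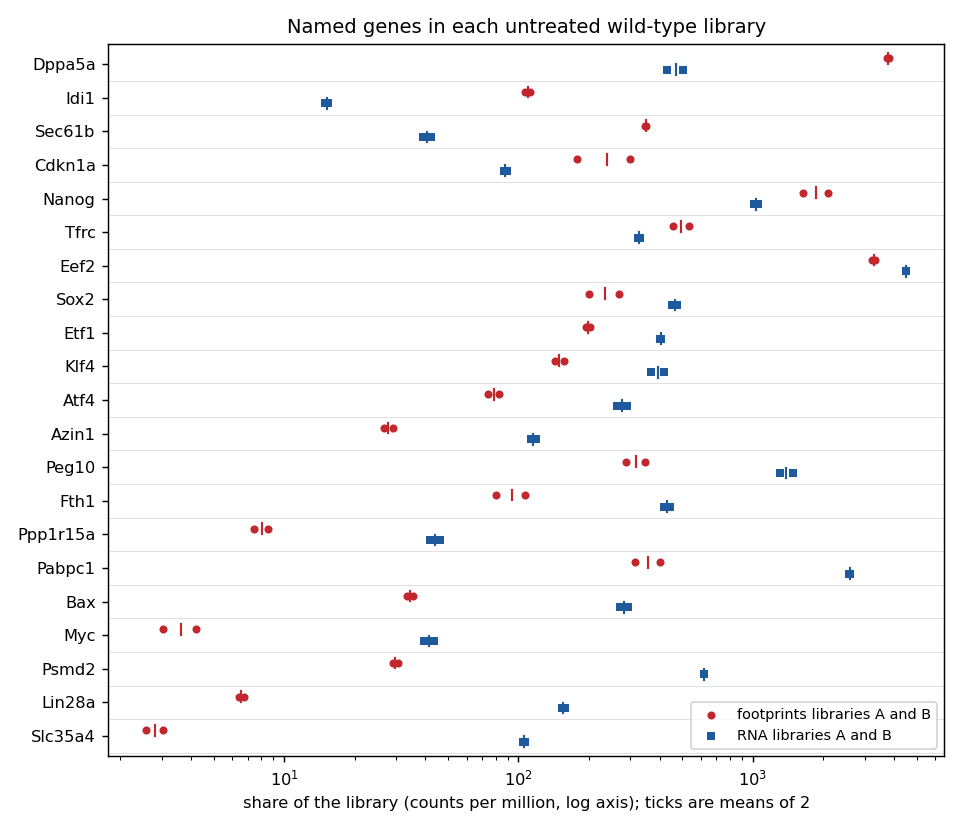
Shares of 21 named genes in each library, in CPM on a log axis, with footprint libraries as red circles above RNA libraries as blue squares and the mean of each pair as a tick. In every gene shown the pairs do not overlap, and the footprint pair passes from the right of the RNA pair (Dppa5a, Idi1, Sec61b, Cdkn1a, Nanog, Tfrc) to its left from Eef2 downward.

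Housekeeping enzymes and complexes were mostly above the median gene. Of 62 nuclear-encoded subunits of the respiratory chain 53 were called higher and 3 lower, with a median of 1.13 (1.08 over the 39 without overlap or copies). Ndufb4, of complex I, had 189 and 161 CPM of footprints, against 3.26 and 3.59 of RNA, and Ndufs3 134 and 115 against 2.64 and 2.41. Ndufs3 lies in a 1 Mb window with a median of 2.17. Ndufb8 was an exception at 1.07 and 1.17 against 120.2 and 106, in a window with a median of -1.71. Cycs, for cytochrome c, with 3 pseudogene rows, was at 0 in both footprint libraries. The 13 mRNAs encoded in mitochondria were not in both tables under a shared symbol.

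Of 32 proteasome genes 23 were called higher and 4 lower, with a median of 0.57 (0.46 over the 22 without overlap or copies). The core particle genes Psmb6 (561 and 525 CPM of footprints, against 25.3 and 24.5 of RNA) and Psma3 (587 and 632 against 35.5 and 32.8) were highest. Psmd2, a scaffold of the regulatory particle, was lowest at 29.1 and 30.6 against 619.8 and 622, a log2 ratio of -4.38 (SE 0.11) from at least 521 counts in each library and with neither an overlapping gene nor a pseudogene row. Adrm1, a ubiquitin receptor of the proteasome, had 4.21 and 3.99 against 62.8 and 58.2.

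Of 29 genes listed as cytosolic chaperones, which include the mitochondrial Hspe1, 18 were called higher and 4 lower. Their median was 0.52 (0.29 over the 15 without overlap or copies). Hspa8, the constitutive HSP70, took 10136 and 7369.6 CPM of footprints, against 416 and 399 of RNA, and overlaps 3 other annotated genes. Hspe1 had 21.0 and 28.1 against 234 and 209, a log2 ratio of -3.18 that was -3.84 with its 7 pseudogene rows added, and Hsph1 265 and 224 against 351 and 361. Of 23 genes of the endoplasmic reticulum 12 were called higher and none lower, with a median of 0.48 (0.62 over the 16 without overlap or copies). Sec61b, a small subunit of the translocon, had 352 and 347 against 42.3 and 39.0, and its partner Sec61g 213 and 254 against 1.77 and 2.23.

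Of 20 glycolytic genes 13 were called higher and 5 lower, with a median of 0.60 that was 0.10 over the 5 without overlap or copies. Pgk1 had 643 and 753 CPM of footprints, against 28.3 and 28.1 of RNA, and Gapdh 138 and 149 against 25.2 and 27.1. Both have 3 pseudogene rows. Adding these changed the log2 ratio of Pgk1 from 4.63 to 4.46 and that of Gapdh from 2.46 to 2.27. Pgk1 lies in a 1 Mb window with a median of 1.73. Eno1 (21.0 and 29.3 against 264 and 262) and its near-identical copy Eno1b (37.4 and 70.5 against 241 and 228) were both low, and how their shared reads were split is not given. Of 24 cholesterol genes 11 were called higher and 8 lower, with a median of 0.16 (0.30 over the 15 without overlap or copies). Idi1, the isomerase of the isoprenoid pathway, had 107 and 112 against 15.4 and 15.0, and Fdps, for farnesyl diphosphate synthase, 395 and 485 against 102 and 89.7. Mvd, an enzyme of the same pathway, was low at 18.4 and 22.8 against 81.1 and 79.8.

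**Figure D5:**
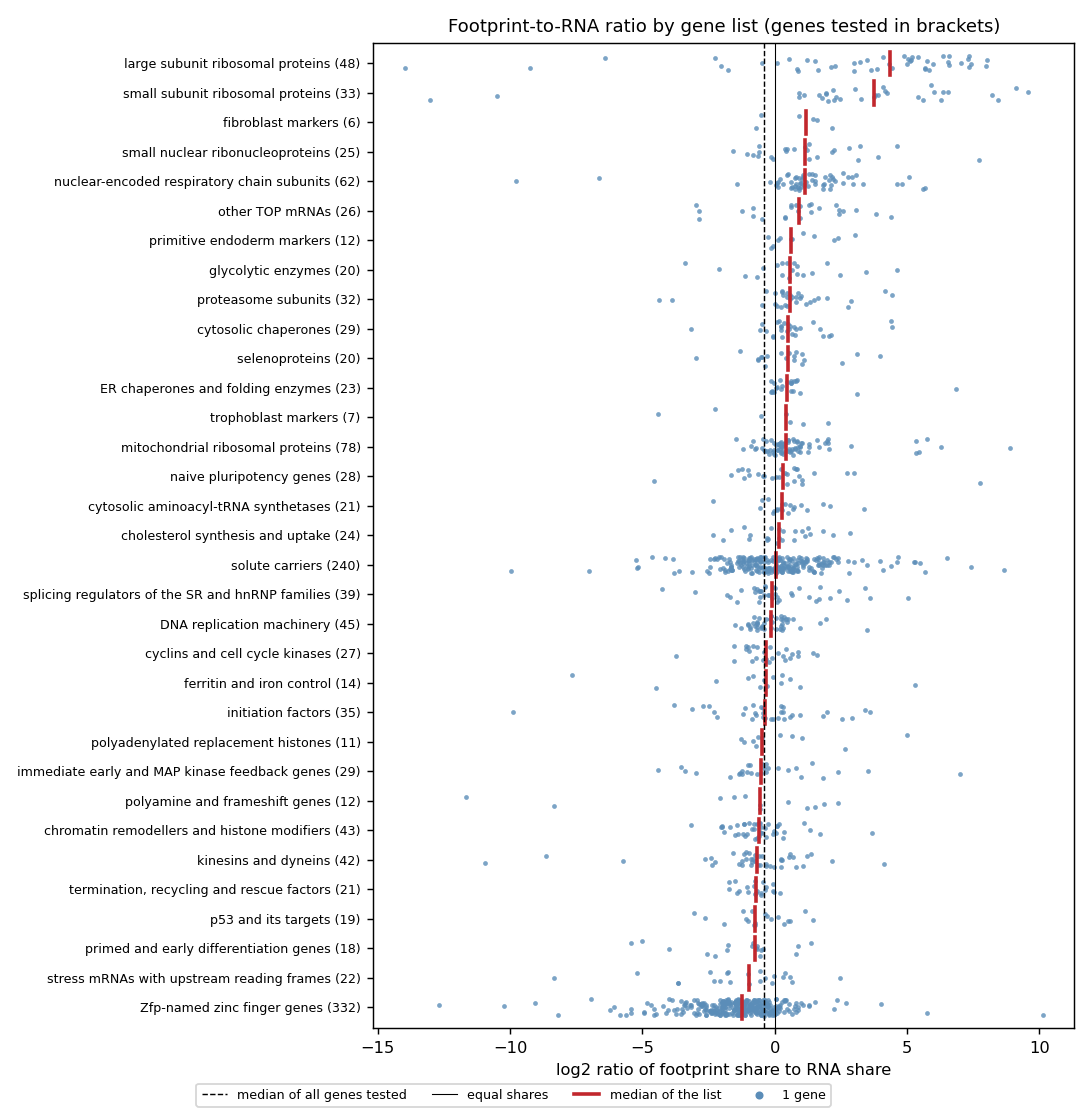
Each point is a gene at its log2 ratio of footprint share to RNA share (horizontal), by gene list, with the list's median as a red bar and the number of genes tested in brackets. Ribosomal protein lists lie far to the right, at medians of 4.37 and 3.75, and stress mRNAs with upstream reading frames and Zfp-named genes lie left of the dashed median of all genes, at -0.98 and -1.24.

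Lists of genes acting in the nucleus had medians on both sides of that of all genes. Of 45 DNA replication genes 13 (28.9%) were called higher and 21 (46.7%) lower, near the 24.6% and 49.5% of all genes. Their median was -0.14 (-0.18 over the 25 without overlap or copies). Rpa3, a subunit of the single-strand binding complex, had 129.6 and 159 CPM of footprints, against 42.2 and 33.0 of RNA, and Rfc1, of the clamp loader, 70.8 and 87.8 against 219.9 and 225. Of 39 splicing regulators 13 (33.3%) were called higher and 16 (41%) lower, with a median of -0.12 (-0.20 over the 23 without overlap or copies). Hnrnpa3 was high at 1554 and 1769.5 against 51.9 and 49.9, whereas Tra2a, with a low 10.6 and 9.03 against 195 and 184, and Srsf9, with 18.5 and 13.8 against 134 and 125, were its lowest members.

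Of 43 genes of chromatin remodellers and histone modifiers 30 (69.8%) were called lower and 6 (14%) higher, beside 49.5% and 24.6% of all genes. Their median was -0.59 (-0.56 over the 20 without overlap or copies). Setd1a, a methyltransferase of histone H3 lysine 4, had 22.5 and 18.8 CPM of footprints, against 183 and 191 of RNA, and Kmt2a, of the same family, 25.7 and 21.3 against 86.2 and 107. Kdm5a, a demethylase of that mark, was higher at 63.0 and 62.5 against 17.9 and 20.2, in a window with a median of 1.51. Ehmt2, at 3.66, lies in one with a median of 4.90. Among 11 replacement histones, whose mRNAs are polyadenylated, 4 were called higher and 6 lower, with a median of -0.46 (-0.22 over the 8 without overlap or copies). H2az1 had 2141 and 2110.2 against 69.5 and 63.7, H3f3a 623 and 549 against 97.1 and 90.2, and Macroh2a1 164 and 137 against 368 and 359.

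Among 29 immediate early and MAP kinase feedback genes, in cells kept in a MEK inhibitor, 17 (58.6%) were called lower and 7 (24.1%) higher. The shares of all genes were 49.5% and 24.6%. The median of the list was -0.51 (-0.50 over the 26 without overlap or copies). Myc had 3.05 and 4.22 CPM of footprints, against 39.5 and 43.7 of RNA, a log2 ratio of -3.52 (SE 0.18), and Spry4, a feedback inhibitor, 1.42 and 1.29 against 26.1 and 31.9. Jund had 54.8 and 46.7 against 0.33 and 0.454, at the other extreme. Of 27 cyclin and cell cycle kinase genes 9 (33.3%) were called higher and 13 (48.1%) lower, with a median of -0.32 (-0.31 over the 12 without overlap or copies). Ccnb1, the mitotic cyclin, had 561 and 643 against 199.6 and 201, a log2 ratio of 1.59 that was 0.92 with its pseudogene row added, and Cdkn1a, the inhibitor p21, 299.9 and 178 against 86.5 and 89.1. Ccnd1, the cyclin of early G1, had 66.7 and 90.9 against 219 and 234, and its kinase Cdk6 2.89 and 4.81 against 51.9 and 49.7.

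Of 19 genes of p53 and its targets 11 (57.9%) were called lower and 4 (21.1%) higher, beside 49.5% and 24.6% of all genes. Their median was -0.75 (-0.32 over the 14 without overlap or copies). Trp53 itself had 585 and 521 CPM of footprints, against 428 and 432 of RNA. Bax, a pore-forming death factor, had 35.4 and 33.5 against 293 and 271, a log2 ratio of -3.03 with neither overlap nor pseudogene row, and Mdm4, an inhibitor of p53, 29.3 and 30.7 against 176 and 196. Pmaip1, also known as Noxa, was higher at 7.36 and 7.27 against 3.83 and 2.77. Mdm2, the ubiquitin ligase of p53, had 172 and 97.6 against 87.8 and 94.8, and without footprint replicate A its log2 ratio was 0.10 in place of 0.56.

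Few noncoding RNAs had enough counts to test. Of 27 long noncoding RNAs listed, Tug1 was the 1 gene tested, with 13.1 and 7.21 CPM of footprints, against 71.0 and 71.8 of RNA, a log2 ratio of -2.80. This value is above those of Psmd2, Lin28a and Slc35a4, which encode proteins. The 2 snoRNA host transcripts tested lay apart: Snhg11 had 1.98 and 1.41 against 16.5 and 17.9, a log2 ratio of -3.33, and Snhg4 had 8.53 and 12.6 against 16.3 and 16.04, a log2 ratio of -0.62, near the median of all genes. Each overlaps 2 other annotated genes, and the call of Snhg4 was lost with TMM over the 4 libraries, with DESeq2 and without either RNA library. Gas5 and Malat1 were not in both tables.

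Among genes with at least 10 counts in every library and a mean share of at least 32 CPM in the assay where they were higher, the 15 highest log2 ratios ran from 7.28 to 9.57 and the 15 lowest from -7.63 to -5.19. The 15 highest included 10 genes with ribosomal protein names; 9 overlapped another gene, 9 had pseudogene rows and 3 lay in windows of extreme median. Ppia, for cyclophilin A (3671 and 4283 CPM of footprints, against 24.9 and 21.0 of RNA), Csnk2b, a casein kinase subunit (277 and 271 against 0.948 and 0.863), and Snu13, a spliceosome protein (334 and 336 against 1.36 and 1.27), were among the others. Of the 15 lowest, 7 overlapped another gene, 1 had a pseudogene row and 2 lay in such windows. Map2k7, a kinase of the JNK pathway, had 11 and 16 footprint counts against 3488 and 3284 RNA counts. Mov10, an RNA helicase, had 1.02 and 0.762 CPM of footprints, against 149.7 and 168 of RNA. Ankrd11, a chromatin regulator, had 4.27 and 3.17 against 424 and 434, and Gemin4, of the SMN complex, 1.02 and 0.88 against 109 and 112. In these genes RNA reads were plentiful and footprints nearly missing, and the tables do not show where in the gene either kind of read lay.

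Gene size went weakly with the ratio. Across 12481 genes the Spearman rho with genomic span was -0.16 and, over the 6517 without overlap or copies, -0.14; the fifth of genes with the shortest spans (up to 8.15 kb) had a median log2 ratio of -0.05 and the fifth with the longest (over 67.4 kb) one of -0.68. With GC content of the first 50 bases rho was -0.06 over 10017 genes. An ATG in those 50 bases made no visible difference, with medians of -0.41 for 3650 genes with one and -0.42 for 6367 without. RNA share itself is the divisor of the ratio, so its rho of -0.18 is in part built in. These correlations are across genes that share the same 4 libraries.

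The order of the genes recurred in other libraries of the series. In wild-type cells given 500 nM dTAG-13 for 1 h, the ratio of their own 2 footprint and 2 RNA libraries had a Spearman rho of 0.953 with the untreated ratio across the same genes, and 11478 of 12485 genes had the same sign. All 15 highest and all 15 lowest genes kept their sign. The treated libraries had been aligned and counted with the untreated ones, so a difference in counting between the tables recurs in both. Atf4 stood apart, at -0.03 in treated cells against -1.82 in untreated ones, as did Ddit3, at -0.35 against -2.31; neither difference was tested here.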

How the data were processed

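The authors deposited raw counts per gene symbol, in 1 table for footprints and 1 for poly(A) RNA; all values are whole numbers, and totals differ between libraries. The submitters' processing notes name HISAT2 2.1.0 and cutadapt, CASAVA 1.4, and mm10 as the build; no counting tool, annotation or rule for reads that match several genes is named in the sources used here. The tables do not share an annotation: 20050 symbols occur in both, and 1984 and 29947 in the footprint and in the RNA table alone. Counts of the 4 untreated wild-type libraries were fitted with edgeR 4.0.16 in R 4.3.3 (glmQLFit, robust, glmQLFTest, two-sided, Benjamini-Hochberg), with assay as the term, 2 residual degrees of freedom, full library totals without a TMM factor, and filterByExpr at a minimum count of 10. The other 7502 members had too few counts, 3946 of them none. SEs come from the log2 ratio and its F statistic. On data simulated with 200 changed genes among 12485, 74% of 2-fold and 92% of 4-fold changes were recovered. Of 12285 unchanged genes, 22 were called. That share of changed genes is far under the 74.2% called in the real data, and rates at such a share were not tested. Gene lists were described by counts and medians, without a set test. The members and lists were chosen with earlier results of these data known.

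Genes named in the text are the 15 highest and 15 lowest as defined in the report, up to 2 called members at each end of a list, and a fixed set of well-known genes; exceptions are said to be such, and 1 gene the rule names is not reported here. Gene positions and pseudogene status come from RefSeq on GRCm38.p6, in which all RNA symbols and 20050 of the 22034 footprint symbols were found. Alternatives used TMM, DESeq2 1.42.0, other filters, limma 3.58.1, a replicate block, leaving out each library, and changed gene sets. Floors and counts cover counting error only.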

Additional observations from a re-analysis of the deposited data

Results flagged for a closer look

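Rows of pseudogenes held 9.91% of RNA counts in library A and 9.59% in library B. Their shares of footprint counts were 0.194% and 0.179%. A total of 4045 and 3892 such rows had RNA counts above 0, and 29 and 32 rows had footprint counts. Pseudogene rows numbered 10622 among RNA symbols but only 118 among footprint symbols, so most had no ratio of their own. Those found with both assays were tested like other genes where counts sufficed. Among them was Rps18-ps6, with 0 RNA counts in both libraries and the highest fitted log2 ratio of all genes tested, 11.90. The row Rn18s-rs5 alone took 1.75% and 1.80% of RNA counts. Gm13456, with 56226 and 49849 RNA counts, Gm15459, with 51559 and 46433, and Eif4a-ps4, with 42169 and 37438, followed among rows that the annotation lists as pseudogenes and that the footprint table does not carry. The part of these counts in any single ratio was tested only by adding rows to the gene they are named after.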

How the results depend on the processing

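The count of 9261 called genes was between 7386 and 10035 when 1 library was left out, 8964 with TMM over the 4 libraries, 9293 with TMM within each assay, 8216 with DESeq2, 9462 with totals over the genes in both tables, 9596 with no filter, 8168 with 10 counts in every library, 9415 with all 8 wild-type libraries, 9314 with limma-voom and 9340 with the replicate letter as a block. Deviations of same-letter libraries were not correlated across genes (correlation 0.03), which does not show whether these libraries came from the same culture. The block changed no count by over 1.5 times. DESeq2 called 4052 genes lower and 2536 over 2-fold lower, fewer than edgeR's 6184 and 3874; its size factors put the median ratio at 0.00, which the choice of scaling fixes. The higher genes were 33.2% of all called with full totals and 48.6% with TMM over the 4 libraries. Without genes that overlap another or have a pseudogene row named after them, 6521 genes were tested and 4793 called, 1669 higher and 3124 lower, 982 and 1948 of them over 2-fold; fewer genes entered. Adding pseudogene rows left 9248 calls and leaving out windows of extreme median 8711; these 3 alternatives were chosen after seeing the data.

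Of 133 genes, 116 kept direction and call in each of the alternatives they entered. Reversed signs were those of Oaz1 (-1.09) and Sms (-0.16) with pseudogene rows added and of Esrrb (0.00034) with DESeq2. Calls of Eef2, Kars, Odc1, Esrrb, Hsph1 and Snhg4 were lost with TMM over the 4 libraries, and that of Mdm2 under 8 alternatives. Relative to the median of all genes, 29 of 34 lists kept their sign throughout; initiation factors, iron control, polyamine genes, p53 targets and replacement histones did not.

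Genes with 0 footprint counts are limited by depth to a floor of 0.0816 CPM over both libraries. Only 2 libraries per assay were available, and ratios depend on where reads were counted in each table.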

Other observations

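Groups collected after the values were seen, by gene names alone, add to the picture and are given as values. Of 332 tested genes with Zfp names, most of them zinc finger transcription factors, 248 were called lower and 22 higher, with a median log2 ratio of -1.24, the same over the 212 that overlap no gene and have no pseudogene row. Of 78 mitochondrial ribosomal protein genes 44 were called higher and 12 lower, with a median of 0.44 (0.52 over the 51 without overlap or copies). Of 25 genes of small nuclear ribonucleoproteins, the core of the spliceosome, 17 were called higher and 6 lower, with a median of 1.15 (1.22 over 19). Of 42 kinesin and dynein genes, the motors that move along microtubules, 26 were called lower and 9 higher, with a median of -0.68. Of 240 solute carrier genes, which move small molecules across membranes, 88 (36.7%) were called higher and 92 (38.3%) lower, with a median of 0.04. The shares of all genes were 24.6% and 49.5%. None of 348 olfactory and vomeronasal receptor genes had enough counts to test.

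Of the 1 Mb windows with at least 5 tested genes, the lowest lay on chromosome 2, at 177 to 178 Mb, where 12 genes had a median log2 ratio of -5.84. On chromosome 13, at 67 to 68 Mb, 24 genes had a median of -2.18. Among the highest, 12 genes on chromosome 4 at 130 to 131 Mb had a median of 5.19 and 17 genes on chromosome 16 at 18 to 19 Mb one of 5.15, and all of these 29 genes lay above the median of all genes.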
